A study of Rattus norvegicus with 20 samples.

Results

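Among 32883 genes listed, 4 genes of fatty acid handling were followed in the gastrocnemius, a muscle of the calf, and in abdominal white fat of the same rats. They are Fabp4 (ENSRNOG00000010805), Fabp3 (ENSRNOG00000012879), Lpl (ENSRNOG00000012181) and Cd36 (ENSRNOG00000005906), each taken by its Ensembl identifier. The names came with the choice of genes, since the files used here do not pair identifiers with symbols. They were chosen by role and with their levels in the 20 libraries known, that is, with the difference between the tissues in view, so that difference is given as a description and without a test.

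The study measured messenger RNA in 10 rats of a Fischer 344 x Brown Norway cross, all 8 months old on arrival, kept on a reversed light cycle for 2 weeks and anaesthetised with isoflurane before the tissues were taken. No treatment group is named in the labels. The 2 groups are 10 muscle libraries and 10 adipose libraries, and libraries with the same number came from 1 rat. Males and females, 5 of each, are named in the series' description, but each sample label says male, so nothing was compared by sex. Both tissues are whole pieces of tissue, in which fewer cells of a type and less RNA per cell cannot be told apart. Markers of fibres, fat cells, vessels and blood cells could not be read without a name for each identifier, and the tissue labels were therefore not checked against them. Adipose libraries 1, 3 and 5 had the highest median levels of muscle-restricted genes among the adipose libraries, adipose library 4 held high levels of a few of them, and muscle library 2 stood apart from the other muscle libraries. These are taken up beside the values they touch.

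Fatty acids reach muscle fibres and fat cells in part as triglyceride in lipoproteins. Lipoprotein lipase, the product of Lpl, is made by these cells, moves to the inner wall of capillaries and releases the fatty acids there. CD36 at the cell surface helps to take them up, and small binding proteins carry them through the watery cell interior. Of these carriers, FABP4 is the form of fat cells and is also found in capillary endothelium and macrophages, while FABP3 is the form of heart and skeletal muscle and is known for higher levels in oxidative fibres.

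The sequence before the gene start was found for 2 of the 4 genes, Fabp3 and Cd36, in the RefSeq promoter table (rat assembly GRCr8). These 2 promoters are shown because only they had an entry there, and not for any pattern in the levels of the genes. Each runs from 250 bases before the start to 50 bases after it, 5′ to 3′ on the strand of the gene (+ for both). Fabp3 lies at chr5:147935875-147936174 and Cd36 at chr4:18246332-18246631. Capitals mark the match to the E-box CANNTG, the short motif bound by helix-loop-helix factors.
Fabp3: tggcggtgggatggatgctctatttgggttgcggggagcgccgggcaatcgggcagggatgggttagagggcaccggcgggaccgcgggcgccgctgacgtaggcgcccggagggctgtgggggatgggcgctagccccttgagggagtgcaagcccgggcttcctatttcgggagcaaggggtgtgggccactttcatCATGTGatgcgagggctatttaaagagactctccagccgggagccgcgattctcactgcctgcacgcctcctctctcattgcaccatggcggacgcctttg
Cd36: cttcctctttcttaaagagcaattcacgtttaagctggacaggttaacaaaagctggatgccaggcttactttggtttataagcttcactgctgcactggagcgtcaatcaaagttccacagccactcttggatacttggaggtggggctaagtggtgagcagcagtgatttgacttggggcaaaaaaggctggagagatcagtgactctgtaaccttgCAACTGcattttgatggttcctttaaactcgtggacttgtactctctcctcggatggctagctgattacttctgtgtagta
Each promoter held 1 match to CANNTG on either strand, a motif present in 72.1% of the 33469 promoters of this length. Each also held 1 match to the TATA-like TTTAAA (13.6% of promoters), with its first base 33 bases before the start in Fabp3 and 10 bases before it in Cd36. TATAAA (14.2%) was matched once, in Cd36. The nuclear receptor half-site AGGTCA (16.2%), the CCAAT box CCAAT (37.5%) and the GC box GGGCGG (33.1%) were searched on both strands and had 0 matches in these windows. A match is a description of the letters only.

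Fabp4 was among the most abundant transcripts of adipose tissue and a minor one of muscle. It supplied 1.27% ± 0.366 of adipose counts but 0.00572% ± 0.00143 of muscle counts (SD, n = 10), and it ranked between place 3 and place 12 by count in the adipose libraries. In CPM (counts per 1000000, scaled by library total and trimmed-mean, TMM, factor) the adipose libraries ran from 2332 to 11643 with a median of 8307. The muscle libraries ran from 65.2 to 115 with a median of 85.9. The tissues did not overlap, and each rat had more in its adipose library. The log2 fold change of muscle over adipose tissue was -6.54 (SE 0.29). Adipose library 4 was the lowest, at 2332 CPM, and the next lowest, library 8, had 5840. In library 4 the muscle-restricted genes described below supplied 0.216% of the counts, less than in libraries 3 (0.667%) and 1 (0.530%) and more than in the other 7.

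Fabp3, the other carrier, was arranged the opposite way. Muscle libraries ran from 73.6 to 1068 CPM with a median of 189, and adipose libraries from 1.98 to 44.3 CPM with a median of 5.40. The fold change was 4.94 on the log2 scale (SE 0.65), with muscle higher in 10 of 10 rats. Muscle libraries 2 (1068 CPM) and 8 (548 CPM) lay well above the rest. In adipose tissue, library 3 had 44.3 CPM and library 7 had 13.3, while the other 8 libraries lay at 7.54 CPM or below. Without adipose libraries 1, 3 and 5 the log2 fold change was 5.65, and without rat 3 alone it was 5.72. It was smaller, 4.45, without muscle library 2, and 4.39 without rat 2. The levels did not overlap with TMM factors. With library totals alone, adipose library 3 (53.4 CPM) stood above 2 muscle libraries, 4 (48.5) and 9 (53.0).

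Lpl, the lipase that feeds both tissues, was abundant in adipose tissue and far lower in muscle. Adipose libraries ran from 2188 to 8553 CPM with a median of 4364, and it ranked between place 3 and place 18 by count among their genes. Muscle libraries ran from 95.9 to 1493 CPM with a median of 196. The log2 fold change was -3.79 (SE 0.50), adipose tissue was higher in 10 of 10 rats, and the tissues did not overlap. Muscle library 2 (1493 CPM) and library 8 (628 CPM) were again the highest in muscle. Without library 2 the log2 fold change was -4.42.

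The row of Cd36 was low in both tissues for a gene known for high levels in fat cells and in oxidative muscle. It held 117 to 725 counts in adipose libraries and 30.8 to 124 counts in muscle libraries. RefSeq lists Cd36l1 and Cd36-ps1 beside Cd36 on the same chromosome. How reads that fit several places were counted is not given in the sources used here, so the level of this row is uncertain and may be only a part of the gene's reads. Adipose libraries ran from 6.91 to 33.3 CPM with a median of 15.7, and muscle libraries from 2.89 to 10.1 CPM with a median of 3.55. Muscle libraries 7 (10.1 CPM), 2 (10.1 CPM) and 8 (7.67 CPM) were the highest, and the other 7 lay at 3.73 CPM or below. The log2 fold change was -1.62 (SE 0.32). Adipose tissue was higher in 9 of 10 rats, and in rat 2 muscle was higher, with 10.1 against 6.91 CPM. With TMM factors 4 adipose libraries lay below the highest muscle library, and with library totals there was no overlap and adipose tissue was higher in 10 of 10 rats.

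Read against all genes, such differences were common. With TMM factors 3 of the 4 genes had no overlap between the tissues, and so had 45.5% of the 13806 genes tested (21.0% with muscle higher and 24.5% with adipose tissue higher). With library totals it was again 3 of 4, Fabp4, Lpl and Cd36, against 56.3% of all genes tested (6.02% with muscle higher and 50.3% with adipose tissue higher). At an adjusted p below 0.05 in edgeR's quasi-likelihood test, 79.8% of the genes tested differed between the tissues, 37.6% with muscle higher and 42.2% with adipose tissue higher. Nothing is read from these shares about the 4 genes, which were chosen with this contrast known.

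**Figure D1:**
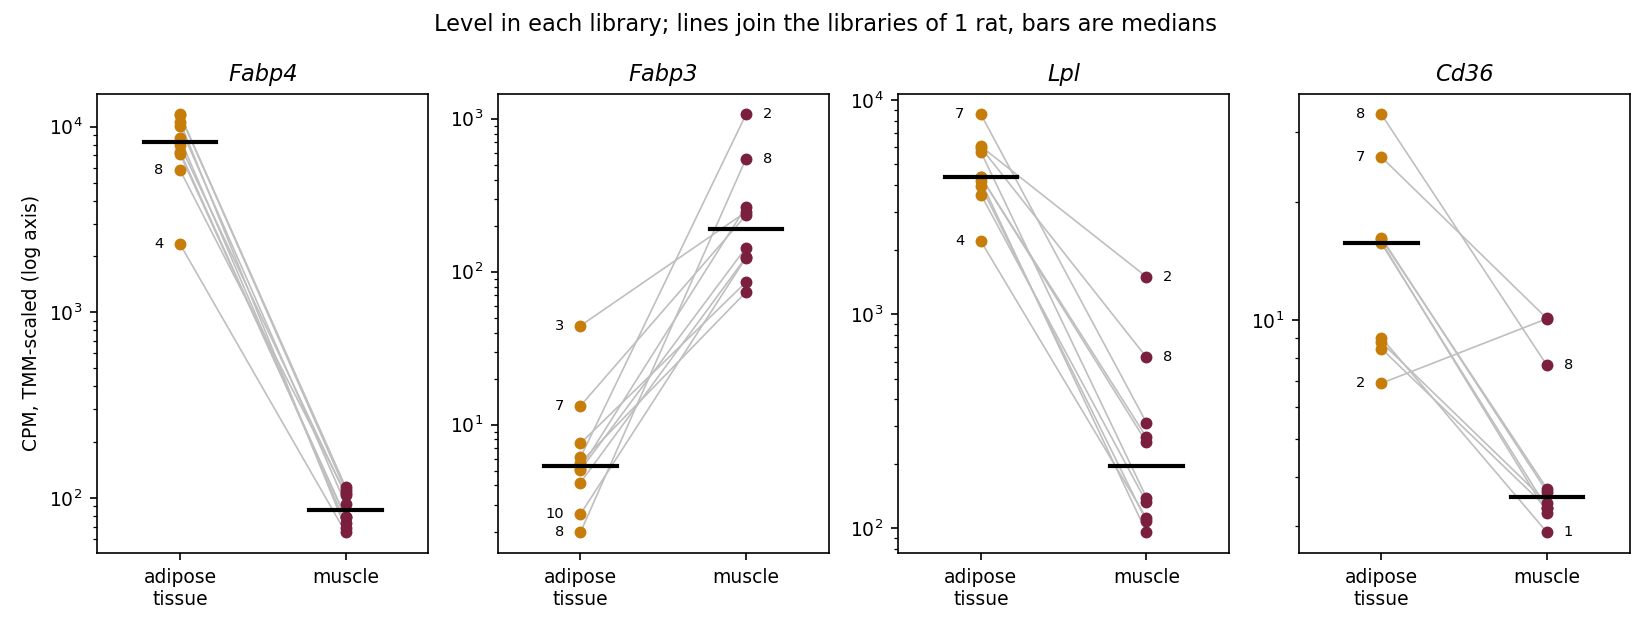
TMM-scaled CPM (log axis, a separate range in each panel) of each gene in the 10 adipose and 10 muscle libraries, with lines joining the libraries of 1 rat, bars at the medians and rat numbers where points are clear of each other. Fabp3 alone was higher in muscle in all rats, and for Cd36 the line of rat 2 runs against the other 9.

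The scaling between the tissues moved every one of these folds. TMM factors lay between 0.559 and 0.747 for the muscle libraries and between 1.21 and 1.98 for the adipose libraries. With library totals alone the median log2 fold change of all genes tested was -1.39, against -0.09 with TMM factors. The log2 fold changes were then -7.79 for Fabp4, -4.99 for Lpl, -2.92 for Cd36 and 3.86 for Fabp3. Directions were the same under both scalings. Relative to that median of all genes, Fabp4 lay at -6.40 with library totals and at -6.46 with TMM factors.

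**Figure D2:**
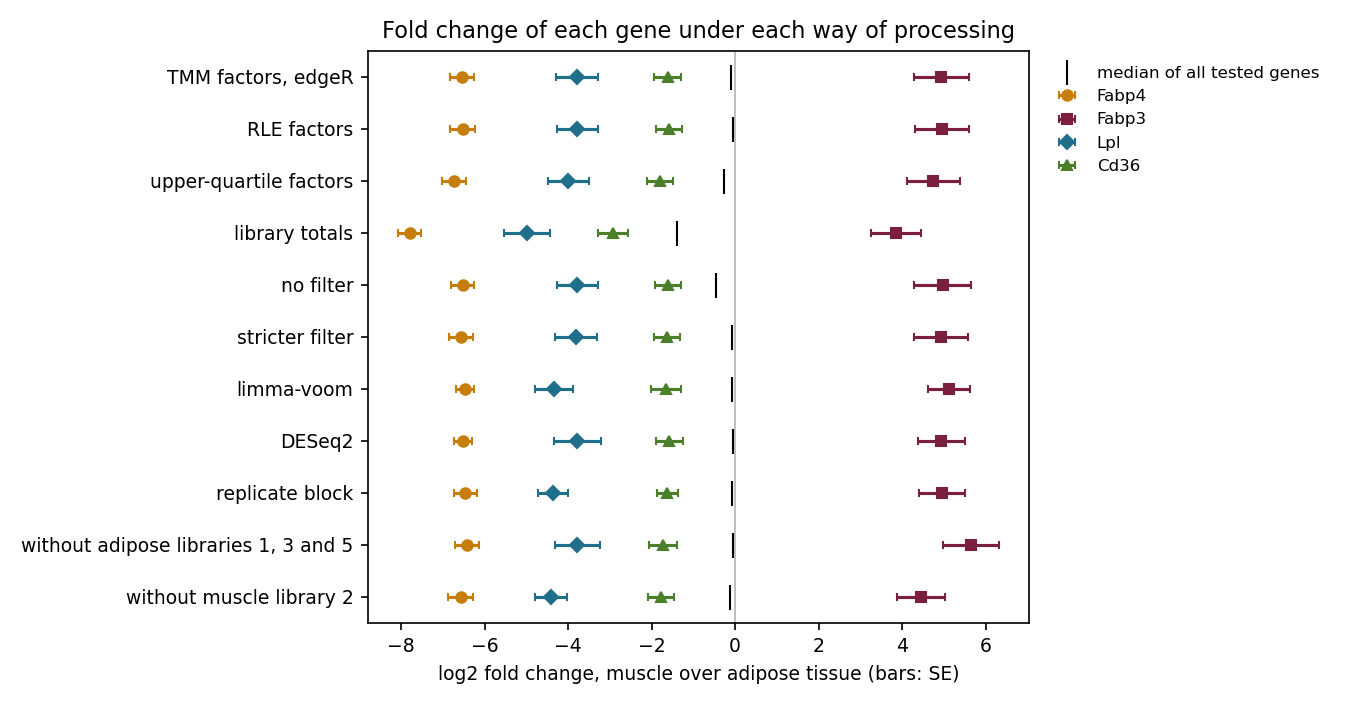
Log2 fold change of muscle over adipose tissue (horizontal axis, bars are SE) for the 4 genes under 11 ways of processing, with the median of all genes tested as a tick. Library totals shift all 4 genes and the median to the left. Leaving out adipose libraries 1, 3 and 5 moves Fabp3 to the right, and leaving out muscle library 2 moves Fabp3 and Lpl to the left.

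The balance of the 2 carriers within a library does not depend on any scaling. In adipose libraries there were 261 to 3847 counts of Fabp4 for each count of Fabp3, with a median of 1620. In muscle libraries there were 0.107 to 0.886, with a median of 0.477. These ratios are not corrected for transcript length, so only their difference between libraries can be read. On the log2 scale adipose libraries had a balance of 10.26 ± 1.26 and muscle libraries one of -1.22 ± 0.97 (SD, n = 10). The difference within a rat was -11.49 ± 1.73 (SD, n = 10) and ran from -14.11 in the rat with the widest gap to -8.86 in the rat with the narrowest. The lowest adipose ratios were those of libraries 3 (261), 4 (411) and 7 (536). Libraries 3 and 7 had the highest Fabp3 and library 4 the lowest Fabp4. The lowest muscle ratios were those of libraries 2 (0.107) and 8 (0.193), the highest in Fabp3.

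Lpl shifted between the tissues as well when set against its partners. Its counts were 98.5 to 2984 times those of Fabp3 in adipose libraries, and 0.776 to 1.52 times in muscle libraries. Against Cd36, on the log2 scale, adipose libraries had a balance of 8.38 ± 0.79 and muscle libraries one of 5.64 ± 0.83 (SD, n = 10), a difference within a rat of -2.74 ± 0.77. The ratio of Lpl to Fabp3 in muscle thus varied 1.96-fold over the 10 rats, while Lpl itself varied 15.6-fold and Fabp3 14.5-fold.

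**Figure D3:**
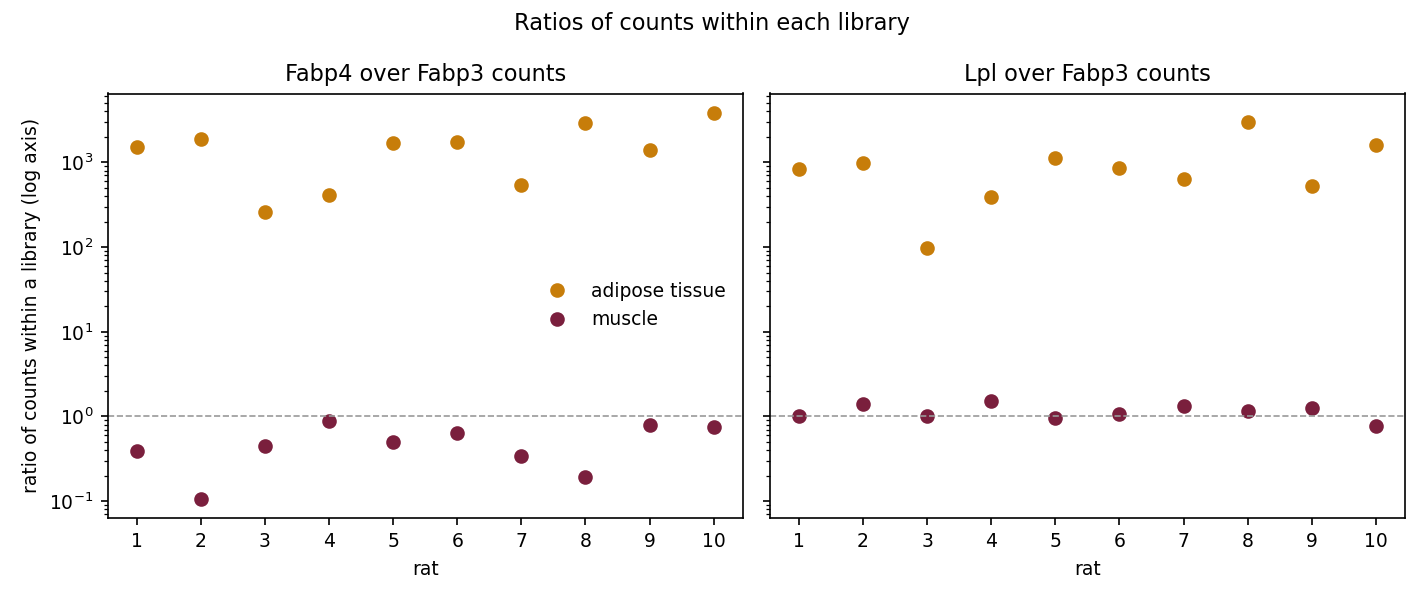
Ratio of Fabp4 to Fabp3 counts (left) and of Lpl to Fabp3 counts (right) in each library by rat, on a log axis, with a dashed line at equal counts. The adipose points lie at 98.5 or more, and the muscle points of Lpl over Fabp3 keep between 0.776 and 1.52. The ratios are not corrected for transcript length, so the dashed line does not mark equal transcript levels.

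The genes were chosen by role and with the difference between the tissues in view. How they varied between rats within a tissue was tested here. Their level in each library was known at the choice, so the p-values of these tests may not be independent of it. In muscle, Fabp3 and Lpl were high in the same rats. Their log2 CPM values had Pearson's r = 0.97 over 10 rats (permutation test, two-sided, p = 5.0e-05, adjusted p = 0.0008 over 16 correlations) and Spearman's rho = 0.92 (permutation p = 0.00063, adjusted p = 0.0101). Rats 4, 9, 10, 6 and 5 had 73.6 to 144 CPM of Fabp3 and 95.9 to 139 CPM of Lpl. Rats 7, 3 and 1 had 234 to 266 CPM of Fabp3 and 252 to 311 CPM of Lpl, and rats 8 and 2 had the highest values of both. Without muscle libraries 2 and 8, r was 0.90 (exact permutation p = 0.00546). Of 7529 other genes that averaged 10 CPM or more in muscle, 6 had a higher r with Fabp3 than Lpl had.

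The other carrier also varied with Fabp3 in muscle. Fabp4 and Fabp3 had r = 0.83 (permutation p = 0.00236, adjusted p = 0.0189) and rho = 0.88 (permutation p = 0.00168, adjusted p = 0.0134), although Fabp4 varied only from 65.2 to 115 CPM. Without muscle libraries 2 and 4, r was 0.74 (exact permutation p = 0.0342). Without rat 2 it was 0.81 and missed the threshold (exact permutation test, adjusted p = 0.0516), and without rats 1, 3 and 5 it was 0.90 (exact permutation test, adjusted p = 0.0508). Of the other genes, 485 had a higher r with Fabp3. The remaining muscle pairs did not pass: Lpl and Cd36 had r = 0.79 (permutation test, adjusted p = 0.0532), Fabp3 and Cd36 0.73 (0.0651), Fabp4 and Lpl 0.72 (0.0555) and Fabp4 and Cd36 0.32 (0.468). With library totals as the scaling, the first 3 of these passed, with adjusted p of 0.0263, 0.0424 and 0.0158 (permutation test). The Cd36 relations rested on the libraries highest in Lpl and Fabp3: without muscle libraries 2 and 8, r fell to 0.51 with Lpl and 0.32 with Fabp3.

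**Figure D4:**
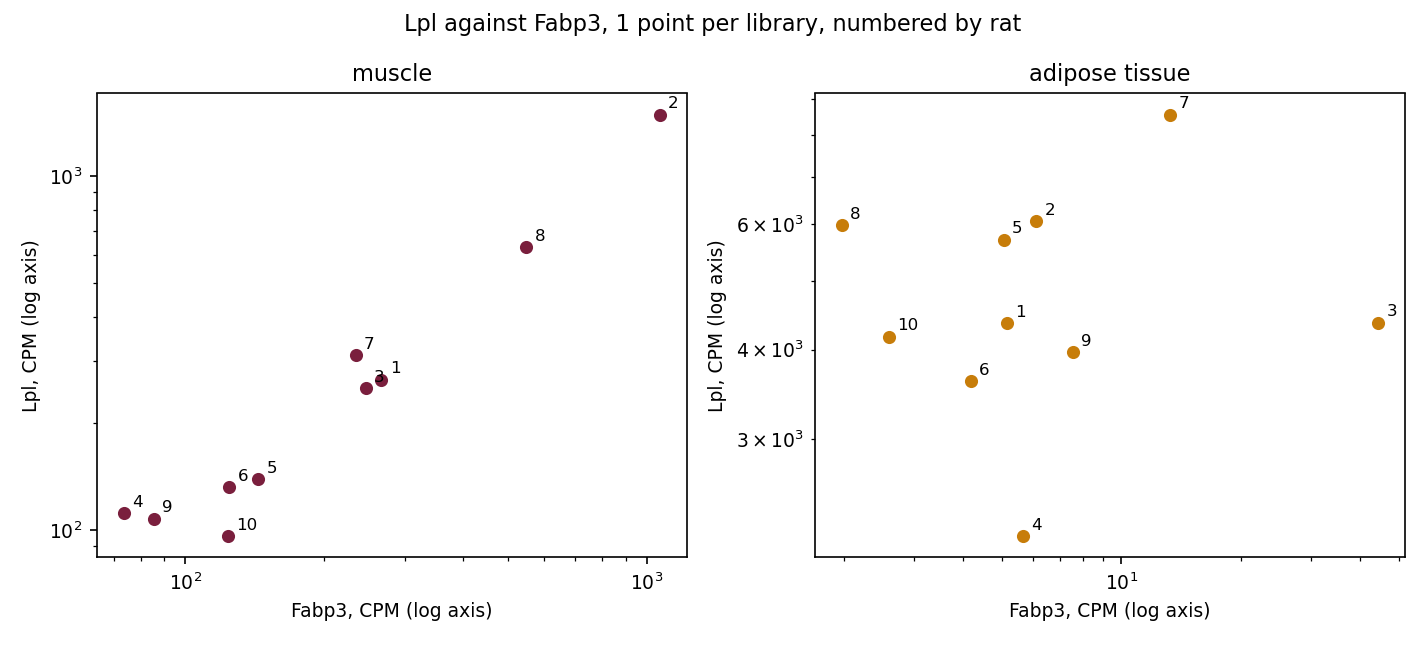
Lpl against Fabp3 in TMM-scaled CPM (log axes), 1 point per library numbered by rat, in muscle (left) and adipose tissue (right). The muscle points lie along a line from rats 4 and 9 to rats 8 and 2, and the adipose points show no such order, with library 3 far to the right.

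In adipose tissue none of the 6 pairs passed the test with TMM factors over all libraries. Fabp3 and Lpl had r = 0.09 (permutation test, adjusted p = 0.841), and 0.48 without adipose libraries 3 and 8 (exact permutation p = 0.209). Fabp4 and Lpl had r = 0.52 (permutation test, adjusted p = 0.278), Lpl and Cd36 0.26 (0.543), Fabp4 and Fabp3 0.27 (0.468), and Fabp3 and Cd36 -0.41 (0.395). Without adipose libraries 4 and 8, r of Fabp4 and Lpl was -0.22. Of these 2, library 4 was the lowest in both genes (2332 CPM of Fabp4 and 2188 CPM of Lpl). Library 8 was low in Fabp4 (5840 CPM) but above the adipose median in Lpl (5986 CPM). Fabp4 and Cd36 had r = -0.47 (permutation test, adjusted p = 0.298) and rho = -0.72 (adjusted p = 0.0908). Without libraries 4 and 8, r was -0.74 (exact permutation p = 0.0408). With TMM factors computed within each tissue, rho was -0.79 and passed (permutation test, adjusted p = 0.0359), while r was -0.46 (0.317). Cd36 was highest in libraries 8 (33.3 CPM) and 7 (26.0 CPM), in which Fabp4 was at 5840 and 7135 CPM. It was lowest in library 2 (6.91 CPM), which had the highest Fabp4. Library 4, with the lowest Fabp4 (2332 CPM), had Cd36 at 15.7 CPM, in the middle of the adipose libraries. That r differs between the tissues was tested by exchanging the tissues within rats, a test added after seeing the data. For Fabp3 and Lpl r was 0.89 higher in muscle (exact permutation test, p = 0.0430, adjusted p = 0.133 over 6 pairs), which does not pass the adjustment, and no other pair passed with TMM factors. With library totals the difference passed for 1 pair, Fabp4 and Fabp3, at 0.90 (exact permutation test, adjusted p = 0.0352). No difference between the tissues in how a pair varied together thus passed under both scalings.

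The levels of a gene in both tissues of a rat were then compared. Lpl had r = 0.58 between muscle and adipose tissue over 10 rats (permutation p = 0.0831, adjusted p = 0.222) and rho = 0.81 (permutation p = 0.00722, adjusted p = 0.0385), so the rank measure passed and r did not. With TMM factors computed within each tissue, rho was 0.79 and passed (permutation test, adjusted p = 0.0359). With library totals rho was 0.64 and did not pass (permutation test, adjusted p = 0.144). Nor did it pass without rat 2 (rho 0.77, exact permutation test, adjusted p = 0.114) or without rats 1, 3 and 5 (0.57, 0.457). Without rats 2 and 8, r was 0.60 (exact permutation p = 0.116). Fabp4 had r = 0.49 (permutation test, adjusted p = 0.278), Cd36 0.32 (0.468) and Fabp3 -0.01 (0.968). Each changed when the 2 rats farthest from the median in muscle were left out: r was -0.09 for Fabp4 without rats 2 and 4 (exact permutation p = 0.840), 0.49 for Fabp3 without rats 2 and 8 (0.228) and 0.82 for Cd36 without rats 2 and 7 (0.0184). Without rat 2 alone, r of Cd36 was 0.81 (exact permutation p = 0.00853, adjusted p = 0.0516), while without rats 1, 3 and 5 it was 0.19 (exact permutation test, adjusted p = 0.755).

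Of the 4 genes, Lpl had the widest spread in muscle, and its spread was compared between the tissues. The mean absolute deviation from the tissue median was 0.985 in muscle and 0.376 in adipose tissue on the log2 scale, larger in muscle in 8 of 10 rats. The difference of adipose minus muscle was -0.61 ± 0.83 (SD, n = 10; two-sided p = 0.0254 by an exact permutation of signs over rats, adjusted p = 0.102 over 4 genes) and did not pass. Without rat 2 it was -0.35 (exact test, adjusted p = 0.648). For Fabp4 the difference was 0.18, for Cd36 0.08 and for Fabp3 -0.14, with adjusted p of 0.441 or more (exact permutation test). Among 7530 genes that averaged 10 CPM or more in muscle, the SD of log2 CPM had a median of 0.257. It was 1.28 for Lpl and 1.20 for Fabp3, above 98.3% and 98.0% of these genes, 0.702 for Cd36 and 0.303 for Fabp4. In adipose tissue it was 1.23 for Fabp3, 0.733 for Cd36, 0.687 for Fabp4 and 0.532 for Lpl, beside a median of 0.322 over 7988 genes. Cd36 in muscle averaged 5.15 CPM and Fabp3 in adipose tissue 9.58 CPM. Both lie below the limit of 10 CPM and so outside the genes they are set beside.

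The muscle libraries high in Fabp3 and Lpl were low in the gene that was most abundant in muscle, ENSRNOG00000049695. It was at 5640 CPM in library 2 and 92221 CPM in library 8, and between 141643 and 193362 CPM in the other 8. This gene was chosen after its values were seen, so no test is given. As it takes a large part of muscle counts, the share left to all other genes moves with it, and the part of this in the order of the libraries was not tested.

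The genes most like a member were sought among all genes of at least 10 CPM in a tissue. For Fabp3 in muscle it was ENSRNOG00000012443, with r = 0.997 over 10 libraries and a mean of 83.7 CPM in muscle and 23.5 CPM in adipose tissue. For Fabp4 in adipose tissue it was ENSRNOG00000020182, with r = 0.99 over 10 libraries, a mean of 129 CPM there and 74.6 CPM in muscle. High r values were common over so few libraries: 8.06% of genes reached 0.8 with Fabp3 in muscle, and 11.7% with Fabp4 in adipose tissue. In adipose tissue 2575 genes had a higher r with Fabp4 than Lpl had.

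Transcripts of the other tissue were followed beside the minor carrier of each tissue. Muscle-restricted genes were taken as those with a median of at least 20 CPM by library totals in muscle and 100 times the adipose median, 170 genes without any of the 4. The rule itself keeps their level in adipose tissue low, and Fabp3 did not meet it, so that Fabp3 lies above them is not a result. Only how the values vary from library to library is described. Their median level in adipose libraries 1, 3 and 5 was 1.41%, 1.57% and 0.454% of that in muscle, and in the other 7 between 0.0265% and 0.149%. Adipose library 4, with a median of 0.149%, had the highest 90th percentile, 4.60%, and more of its counts in these genes (0.216%) than library 5 (0.153%). Fabp3 was at 44.0% of its median muscle level in library 3, at 16.4% in library 7 and between 2.76% and 9.09% in the other 8. Library 7, the second highest in Fabp3, was among the low ones in muscle-restricted genes, at 0.0658%. Library 1 had 6.97% for Fabp3 beside 1.41% for these genes, and library 4 had 9.04%.

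In muscle the same was done with adipose-restricted genes. The rule gave 153 genes besides Fabp4, which itself met it, while Lpl did not, so their order was set by the rule. The median of these genes in muscle libraries was 0.203% to 0.530% of their adipose level, highest in library 2 and next in library 8 (0.387%). Fabp4 was at 0.314% to 0.634%, also highest in library 2. Lpl was at 0.896% to 2.90% in 8 muscle libraries, at 5.97% in library 8 and at 16.4% in library 2. The part that RNA from fat within or beside the muscle has in these values was not tested.

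**Figure D5:**
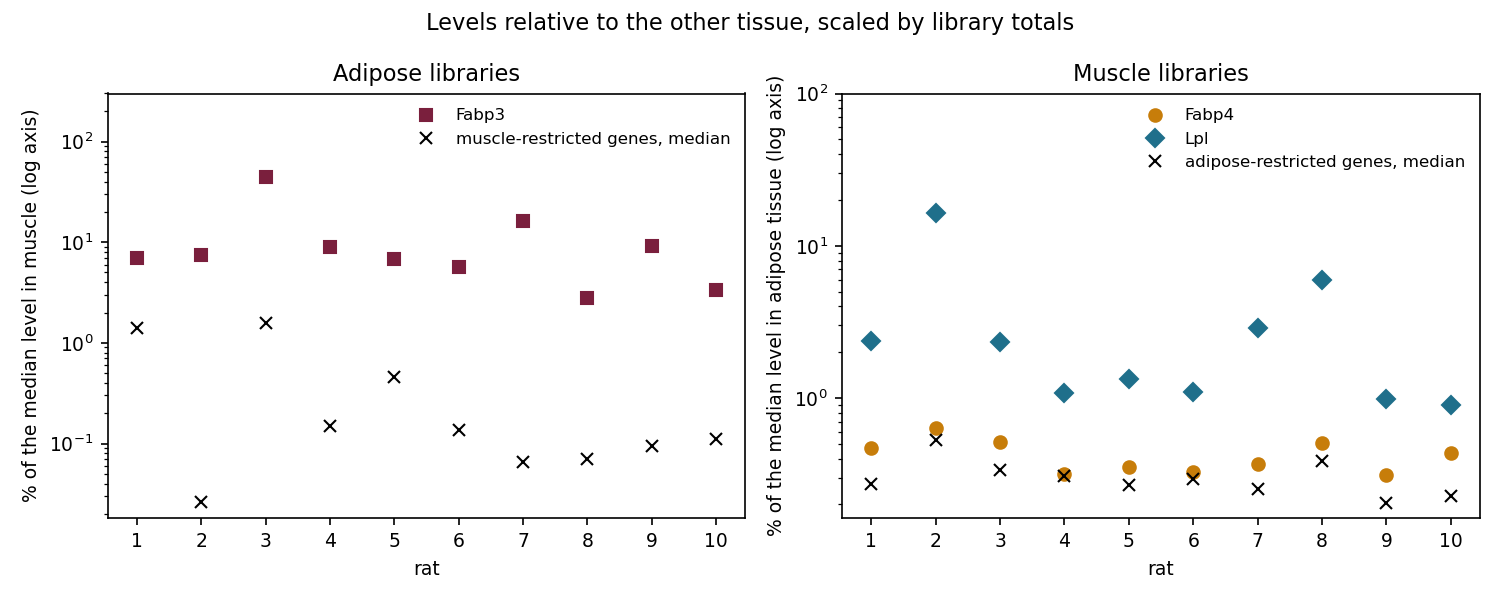
Level of each gene as a percentage of its median level in the other tissue, by library totals (log axis): Fabp3 in adipose libraries beside the median of 170 muscle-restricted genes (left), and Fabp4 and Lpl in muscle libraries beside the median of 153 adipose-restricted genes (right). The rule for the restricted genes sets the height of the crosses; Fabp3 is highest in libraries 3 and 7, the crosses at left in libraries 3 and 1, and all 3 series at right are highest in library 2.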

How the data were processed

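Per the series' design text and the labels, RNA of 10 rats was sequenced in 2 tissues, 10 mg of muscle and 30 mg of fat, with 300 ng of RNA in a poly(A) library. The rat assembly rn6 and the tools STAR, featureCounts and bcl2fastq appear in the submitters' processing notes. For versions, annotation, strand setting and multi-mapping reads, the answer is not given in the sources used here. The authors deposited expected counts per gene, which are not normalised and not whole: 25.3% of values above 0 were whole within 0.005, and 2 of the 80 values of the 4 genes. They were rounded for the count tests. Library totals lay between 8446753 and 20141854 for muscle and between 11067755 and 25904309 for adipose tissue. Counts are reads without molecular identifiers.

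The members and lists were chosen with earlier results of these data known. The gene table has no Ensembl identifier for this organism (0 matched), so the lists of fatty acid genes and cell type markers could not be run. Named genes are the 4 members and, without symbols, the 1 identifier most like Fabp4 in adipose tissue and Fabp3 in muscle. The most abundant gene of muscle was added after its values were seen.

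Counts were fitted with edgeR 4.0.16 in R 4.3.3 (filterByExpr, TMM, robust quasi-likelihood test, Benjamini-Hochberg over 13806 genes, no animal block), tested on simulated data first. SEs come from the F statistic. Log2 CPM used a prior count of 2 and ratios of counts a pseudocount of 0.5. Library totals are those of the genes tested, except for the restricted genes, which use all counts. Correlations used permutation tests with 100000 resamples, or exact tests below 10 rats. No libraries of a tissue agreed within sampling noise (chi-square per degree of freedom of 12.4 or more).

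Same-numbered libraries come from the same rat by the titles and the design text. In the check of this, deviations over 8303 genes had r of -0.22 to 0.42 within a rat (median 0.12) and a median of -0.03 between rats, so the pairing rests on the labels. Alternatives were other factors and filters, limma 3.58.1, DESeq2 1.42.0, the animal block and libraries left out.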

Additional observations from a re-analysis of the deposited data

Results flagged for a closer look

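In 10 groups of 10 libraries (the 4 genes and the balance of Fabp4 over Fabp3, each in both tissues), the highest and lowest libraries were compared with their neighbours on the log2 scale. Dixon's 95% criterion for 10 samples, on the gap as a part of the whole range, was passed in 1 case, where chance gives about 1 in 20 groups. It was adipose library 4, which had a log2 CPM of Fabp4 of 11.19, next to 12.51 in library 8. The same library had the lowest Lpl of the adipose libraries, at 2188 CPM, while its Fabp3 and Cd36 lay inside the range of the others. It also had the highest TMM factor, 1.98. By library totals its Fabp4 was again the lowest, at 4614 CPM beside 9914 in library 8. Muscle-restricted genes supplied 0.216% of its counts, beside 0.0371% to 0.667% in the other adipose libraries, and their part in this was not tested.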

How the results depend on the processing

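Each of the 4 fold changes had the same direction under all alternatives run. With library totals they were -7.79 for Fabp4, -4.99 for Lpl, -2.92 for Cd36 and 3.86 for Fabp3. Differences within a rat with TMM factors ran from -7.28 to -5.16 for Fabp4 and from -2.25 to 0.54 for Cd36, so these 2 folds lay outside them. They ran from -5.44 to -2.02 for Lpl and from 2.47 to 8.03 for Fabp3, and these folds lay inside. With the animal as a replicate block they were -6.46 for Fabp4, 4.95 for Fabp3, -4.36 for Lpl and -1.62 for Cd36, and no direction changed. Leaving out each rat in turn gave -6.62 to -6.46 for Fabp4, 4.39 to 5.72 for Fabp3, -4.39 to -3.64 for Lpl and -1.88 to -1.51 for Cd36, and -11.78 to -11.20 for the balance of the carriers. The number of correlations that passed, 2 of 16, was 5 with library totals, 1 without rats 1, 3 and 5 and 1 without rat 2. No comparison of spread passed under any alternative. Genes called between the tissues numbered 11011, and 10702 to 11067 with 1 rat left out. Depth limits Cd36 most, with as few as 30.8 counts in a muscle library.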
